A study of Rattus norvegicus with 9 samples.

Results

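The genes described here control where blood clots form and how clots and pericellular matrix are cleared: the tissue factor pathway inhibitors Tfpi and Tfpi2, tissue factor itself (F3), the plasminogen activators Plat and Plau, the protease inhibitor Serpine2, the annexin pair Anxa2 and S100a10, and the von Willebrand factor gene Vwf. They were taken as every probe of a rat bead array whose platform gene symbol is 1 of these 9 names. That gave 8 probes, 1 each for 8 genes, of 22523 probes (13311 named genes) on the array. S100a10 has no probe under its name in the platform annotation and was not analysed here. The series holds 9 arrays of total RNA from rat brain cortex: 3 from rats kept at normal oxygen and sea level, 3 from rats made hypoxic at a simulated altitude of 3 km, and 3 from rats made hypoxic at a simulated altitude of 7 km. All 3 groups share the tissue, and no label names a strain, sex, age, drug or length of exposure. The replicates of a group are not said to be separate animals, and p-values therefore reflect the variation among these samples alone, which may be technical. The series title names TFPI2 as a target of the microRNA miR-92a-2 in hypoxic neurons.

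Tissue factor is the membrane receptor that starts coagulation by binding factor VII, and TFPI shuts that complex down together with factor X. TFPI2 is a related inhibitor with the same kind of Kunitz domains, secreted into the extracellular matrix, where it blocks plasmin and other serine proteases. Plasmin is made from plasminogen by the tissue and urokinase activators, helped at the cell surface by annexin A2, and it dissolves fibrin and cleaves matrix. In the brain, tissue factor is made mainly by astrocytes, the tissue activator by neurons and vessels, and von Willebrand factor by endothelium.

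The microRNA of the title comes from the Mir92a2 locus, whose 2 mature strands are shown because the title does not say which of them is meant. The sequences are from RefSeq (GRCr8, chrX, minus strand), written 5′ to 3′ with the seed, bases 2 to 8, in capitals. The strands have different seeds, so they do not share a seed family. This array measures messenger RNA, so no level of either strand is reported, and target sites in the Tfpi2 transcript were not analysed here.
rno-miR-92a-2-5p: aGGUGGGGauuagugccauuac
rno-miR-92a-3p: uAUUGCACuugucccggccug

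Sequence before annotated transcript starts is given for 4 genes: Tfpi, Tfpi2, Serpine2 and Anxa2. The 2 deposited tables differ in the values they assign to Tfpi and Tfpi2. Serpine2 and Anxa2 arrays at both altitudes lay above those at sea level, for Serpine2 by a narrow margin at 3 km. That lack of overlap is not support for Anxa2, which entered the test through the altitude arrays, where it is high. RefSeq entries (GRCr8) existed for 5 of the 9 genes, the fifth being Plau. Each run is the 250 bases before an annotated transcript start, 5′ to 3′ on the strand of the gene. Both Tfpi windows lie inside the annotated gene (chr3:89939862-89989253), before internal starts, and the first is downstream of the second. The Tfpi2 and Serpine2 windows partly overlap their genes, whose annotated spans end at 32941385 and 88637252. Of the windows shown, only that of Anxa2 lies wholly outside its gene. Capitals mark ACGTG, the core bound by hypoxia-inducible factors, on either strand, where it reads CACGT on the strand shown. Of 33469 rat promoter windows of this length, 16.6% hold ACGTG on either strand, 25.9% hold GCGTG, the other form of that core, and 6.34% hold TGANTCA, the AP-1 motif. The Tfpi2 window holds 1 match to ACGTG, 2 to GCGTG and 1 to TGANTCA, and the Anxa2 window 1, 0 and 1. Serpine2 has no match to any of the 3 motifs, and the first of the Tfpi windows has 1 match to GCGTG. A match is a description of these letters and does not show that a factor binds there.
Tfpi, first start, chr3:89980725-89980974, minus strand: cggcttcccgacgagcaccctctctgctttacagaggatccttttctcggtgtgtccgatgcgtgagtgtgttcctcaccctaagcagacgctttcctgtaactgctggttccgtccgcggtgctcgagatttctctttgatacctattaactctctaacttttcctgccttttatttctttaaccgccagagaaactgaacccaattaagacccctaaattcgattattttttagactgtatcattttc
Tfpi, second start, chr3:89983544-89983793, minus strand: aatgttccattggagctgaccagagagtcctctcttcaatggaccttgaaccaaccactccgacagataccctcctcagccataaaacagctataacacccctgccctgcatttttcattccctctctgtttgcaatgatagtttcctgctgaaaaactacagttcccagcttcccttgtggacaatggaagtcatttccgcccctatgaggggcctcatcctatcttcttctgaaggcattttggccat
Tfpi2, chr4:32941277-32941526, minus strand: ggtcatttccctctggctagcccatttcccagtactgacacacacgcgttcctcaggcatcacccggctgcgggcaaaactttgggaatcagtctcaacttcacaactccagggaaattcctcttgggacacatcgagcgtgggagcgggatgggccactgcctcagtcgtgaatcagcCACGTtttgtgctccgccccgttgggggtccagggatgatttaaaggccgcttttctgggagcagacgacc
Serpine2, chr9:88637203-88637452, minus strand: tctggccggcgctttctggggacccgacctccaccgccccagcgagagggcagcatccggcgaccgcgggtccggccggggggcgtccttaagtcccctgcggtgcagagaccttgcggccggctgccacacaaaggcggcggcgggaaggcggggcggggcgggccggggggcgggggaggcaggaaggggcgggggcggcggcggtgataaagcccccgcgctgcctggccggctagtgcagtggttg
Anxa2, chr8:78986002-78986251, plus strand: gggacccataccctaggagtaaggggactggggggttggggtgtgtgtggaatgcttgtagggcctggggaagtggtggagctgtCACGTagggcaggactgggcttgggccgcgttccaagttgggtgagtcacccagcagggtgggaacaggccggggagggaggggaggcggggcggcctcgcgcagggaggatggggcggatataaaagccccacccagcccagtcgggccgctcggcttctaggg

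Each array gave a signal in linear intensity units and a detection p-value per probe, and a probe was called above background where that p-value was below 0.05. On 8 arrays the median signal was 121 to 159, 5881 to 6621 probes were above background, and Spearman correlations of one array with another were 0.969 to 0.978. The third sea level array (replicate 3) departed from the rest, with a median of 204, 8170 probes above background and correlations of 0.642 to 0.660 with the others. Because it enters every comparison with sea level, results are given with all 9 arrays and with the 8 that remain without it. Log2 values come from background correction and quantile normalization, which set the lowest value of every array to 7.26 and its 75th percentile to 7.45, so differences of dim probes are pulled towards 0. Differences are log2 values of one group minus the other ± the standard error of the limma model, and adjusted p-values cover all 6656 probes tested (6499 with 8 arrays). Precision is limited by there being 3 arrays in a group.

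**Figure D1:**
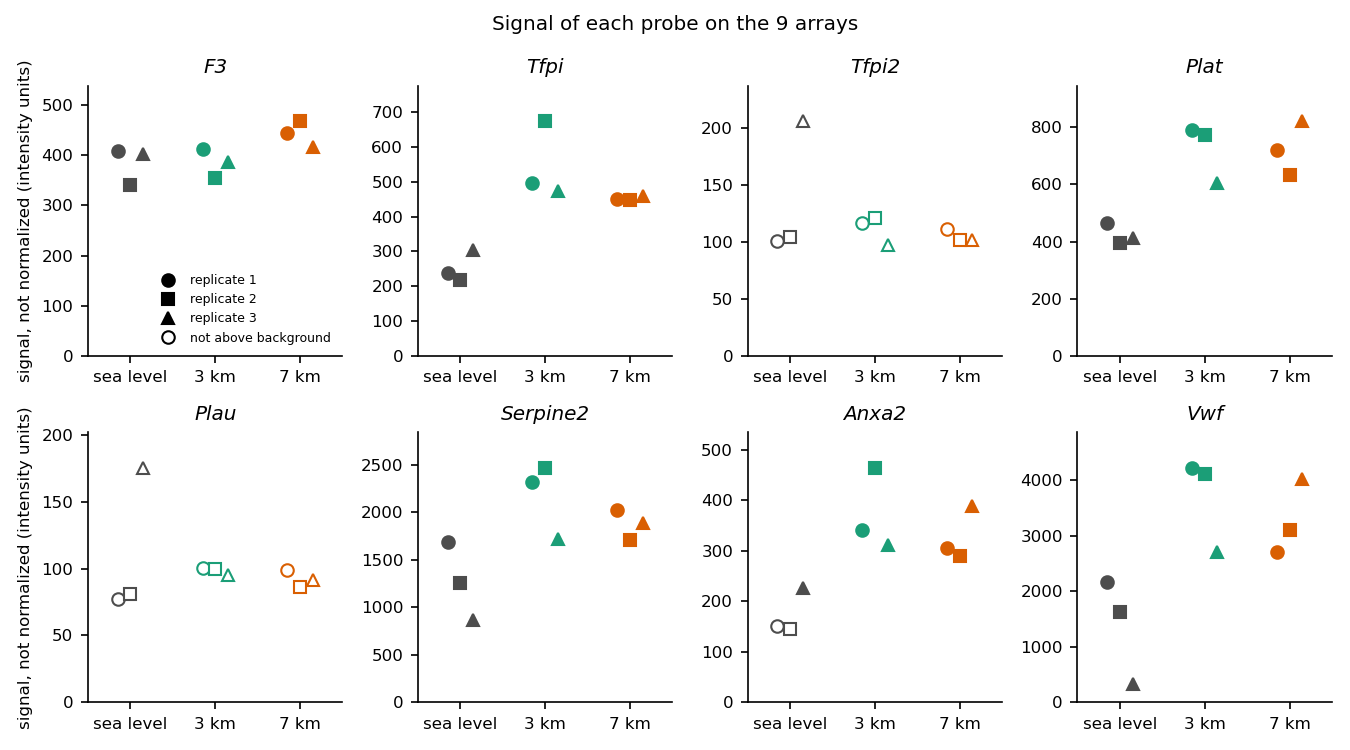
Signal of the 8 probes, not normalized, in linear intensity units, with 1 point per array; the x axis gives the altitude, the symbol the replicate, and open symbols mark arrays on which the probe was not above background. Tfpi2 and Plau are open on all 9 arrays, and Tfpi, Plat, Serpine2, Anxa2 and Vwf are lower on each sea level array than on each array at 3 km or 7 km.

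Tissue factor transcripts were above background on all 9 arrays, with mean signals of 384 at sea level, 384 at 3 km and 442 at 7 km. After normalization of 9 arrays they lay slightly below sea level at 3 km. At 7 km the difference was smaller than its standard error, and its sign turned with 8 arrays. F3 had normalized log2 levels of 7.66, 7.65 and 7.88 on the sea level arrays, 7.57, 7.49 and 7.62 at 3 km, and 7.66, 7.76 and 7.66 at 7 km. The 3 km arrays lay below all sea level arrays, and the 7 km arrays overlapped them. At 7 km the log2 difference from sea level was -0.04 ± 0.070 (adjusted p = 0.742), and at 3 km it was -0.17 ± 0.070 (adjusted p = 0.533). Sea level replicate 3 held the highest value, and without it the differences were 0.03 ± 0.036 and -0.07 ± 0.036. The 7 km arrays lay above the 3 km arrays, by 0.13 ± 0.070 with 9 arrays (adjusted p = 1) and by 0.10 ± 0.032 with 8 (adjusted p = 0.499). No difference in F3 passed the threshold.

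Tfpi, the plasma and endothelial inhibitor of that pathway, was brighter at both altitudes in the non-normalized table. It was above background on all 9 arrays, but on sea level replicates 1 and 2 near the limit of 0.05 (detection p-values 0.0388 and 0.0303). Its signals were 240, 219 and 304 on the sea level arrays, 496, 674 and 472 at 3 km, and 451, 447 and 459 at 7 km. The altitude arrays did not overlap the sea level arrays, and the 7 km and 3 km arrays overlapped each other after normalization. The normalized log2 levels were 7.44, 7.46 and 7.64 at sea level, 7.66, 7.80 and 7.73 at 3 km, and 7.66, 7.73 and 7.72 at 7 km. The log2 difference was 0.19 ± 0.060 at 7 km (unadjusted p = 0.0141, adjusted p = 0.374 from limma) and 0.22 ± 0.060 at 3 km (unadjusted p = 0.00744, adjusted p = 0.403 from limma). Without sea level replicate 3 the values were 0.19 ± 0.032 and 0.21 ± 0.032, with adjusted p-values of 0.110 and 0.104, the lowest of all genes in the list. The size rests on the background handling: without background correction the differences were 0.59 ± 0.18 and 0.65 ± 0.18, and they did not pass either. With arrays weighted by their quality the calls turned, at 0.26 ± 0.037 (adjusted p = 0.0219) and 0.29 ± 0.035 (adjusted p = 0.0148). The estimation of those weights stopped short of convergence. Median scaling gave -0.48 ± 0.48 and -0.38 ± 0.48, or 0.16 and 0.17 relative to the shift of all tested probes under it. Between 7 km and 3 km it was -0.03 ± 0.060.

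Tfpi2, the gene of the series title, was above background on 0 of 9 arrays in the non-normalized table. Its signals were 101, 105 and 206 on the sea level arrays, 116, 121 and 97.4 at 3 km, and 111, 102 and 102 at 7 km, with detection p-values of 0.159 to 0.612. The signal of 206 belongs to sea level replicate 3, whose median over all probes was 204. No fold is given, since every group is at background. A probe below background does not show that a gene is silent: the probes of Eno1, a glycolytic enzyme that also binds plasminogen, and Serpini1, the neuronal inhibitor of the tissue activator, both abundant in brain, were above background on 0 of 9 arrays.

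The authors' value table of the same arrays, which has values below 0 and nearly equal array means, holds other values for Tfpi2 and Tfpi. There, the probe of Tfpi2 has 94.99, 107 and 190 on the sea level arrays, -55.9, -46.8 and -49.6 at 3 km, and 282, 325 and 319 at 7 km. Tfpi has -50.3, -36.1 and 22.2 at sea level, 274, 391 and 329 at 3 km, and -55.8, -62.3 and -51.2 at 7 km. In that table Tfpi2 is high at 7 km and lowest at 3 km, while Tfpi is high on the 3 km arrays.

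The values of the 2 probes are exchanged between the tables on the 7 km and sea level arrays. For each array, the value that a signal should have in the authors' value table was read from the running median over 41 probes ordered by signal. On the 3 km arrays both probes lay within 0.031 units of the value read from their own signal. On the 6 arrays at 7 km and sea level, the value under Tfpi2 was that of the Tfpi signal and the value under Tfpi was that of the Tfpi2 signal, all within 0.41 units. Of 21675 probes in both tables, 21010 (96.9%) matched on all 9 arrays, to within 10 units or 10%, whichever was larger, and 360 departed on all 9. Exactly 2 probes departed on all 7 km and sea level arrays and on no 3 km array, and these were Tfpi and Tfpi2. They were also the only pair, among the 371 probes that departed on all 6 of those arrays, in which each probe's values fitted the other's signals. Which table gives the right probe cannot be told apart with these files, and every value of Tfpi and Tfpi2 here depends on it.

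**Figure D2:**
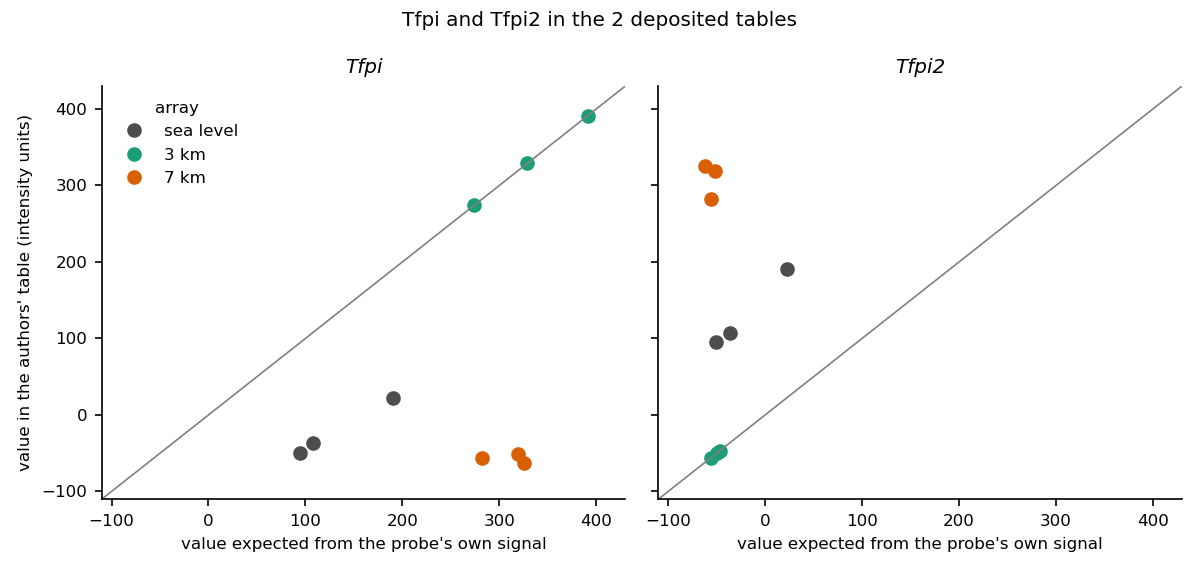
Value of Tfpi (left) and Tfpi2 (right) in the authors' value table (y axis, intensity units) against the value expected from the probe's own signal in the non-normalized table (x axis, same units), 1 point per array, with the line of equality. The 3 km arrays lie on the line in both panels, and the 7 km and sea level arrays leave it in opposite directions.

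The fit was also run on the authors' values. In the authors' value table, with values below 16 raised to 16 and no filter on dim probes, the log2 difference of Tfpi2 was 1.30 ± 0.25 at 7 km against sea level (adjusted p = 0.475) and 4.27 ± 0.25 at 7 km against 3 km (adjusted p = 0.0176). At 3 km against sea level it was -2.96 ± 0.25 (adjusted p = 0.0553). In the non-normalized table the probe is at background in every group and gives no difference to set beside these. Tfpi in the authors' value table had -0.16 ± 0.19 at 7 km against sea level (adjusted p = 0.631), a value set by the floor, since all of those arrays but sea level replicate 3 were raised to 16, and 4.20 ± 0.19 at 3 km against sea level (adjusted p = 0.000189). It had -4.36 ± 0.19 at 7 km against 3 km (adjusted p = 0.000143). The differences that passed there set 3 km arrays, on which the probes keep their own values, against arrays on which they are exchanged, and values raised to 16 make them bounds set by that floor.

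Plat, which encodes the tissue plasminogen activator that neurons and vessels release, was above background on all 9 arrays and brighter at both altitudes. Its signals were 463, 396 and 412 on the sea level arrays, 791, 771 and 604 at 3 km, and 719, 633 and 821 at 7 km. On the normalized scale the levels were 7.73, 7.74 and 7.90 at sea level, 7.98, 7.89 and 7.90 at 3 km, and 8.01, 8.00 and 8.20 at 7 km. The 7 km arrays lay above all arrays of both other groups, and the 3 km arrays overlapped the sea level arrays through sea level replicate 3. The log2 difference from sea level was 0.27 ± 0.070 at 7 km (unadjusted p = 0.0051, adjusted p = 0.281 from limma) and 0.13 ± 0.070 at 3 km (adjusted p = 0.533). Without sea level replicate 3 these were 0.27 ± 0.056 (adjusted p = 0.149) and 0.15 ± 0.056 (adjusted p = 0.476). Between 7 km and 3 km the difference was 0.14 ± 0.070 (adjusted p = 1). Without background correction the differences from sea level were 0.48 ± 0.13 and 0.26 ± 0.13, and the authors' values gave 0.77 ± 0.15 and 0.50 ± 0.15. Of the settings run, array weights, whose estimation stopped short of convergence, alone gave a call, at 7 km (0.32 ± 0.053, adjusted p = 0.0273). Scaling arrays by their median in place of quantiles turned the direction, to -0.66 ± 0.64 at 7 km and -0.65 ± 0.64 at 3 km. Relative to the shift of all tested probes these are -0.02 and -0.10. The standard errors there were larger than in the main fit, and neither value passed.

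Plau, which encodes urokinase, the other plasminogen activator, was above background on 0 of 9 arrays. Its signals were 77.6, 80.9 and 175 on the sea level arrays, 101, 99.4 and 94.8 at 3 km, and 99.2, 86.1 and 91.2 at 7 km, with detection p-values of 0.661 to 0.979. The high signal is again that of sea level replicate 3 and lies below the median of that array. In the authors' value table its mean was negative in all 3 groups, so no fold is given.

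Serpine2, protease nexin 1, which inhibits thrombin and both plasminogen activators, had the lowest adjusted p-value of the list at both altitudes with all 9 arrays. Its signals were 1683, 1252 and 872 on the sea level arrays, 2320, 2469 and 1717 at 3 km, and 2020, 1713 and 1886 at 7 km. Normalized levels were 9.41, 9.16 and 9.14 at sea level, 9.72, 9.67 and 9.43 at 3 km, and 9.78, 9.61 and 9.70 at 7 km. Both altitude groups lay above the sea level arrays, at 3 km by a narrow margin (9.43 on 3 km replicate 3, against 9.41 on sea level replicate 1). The log2 difference was 0.46 ± 0.10 at 7 km (unadjusted p = 0.0021, adjusted p = 0.214 from limma) and 0.37 ± 0.10 at 3 km (unadjusted p = 0.00684, adjusted p = 0.399 from limma). With 8 arrays it was 0.43 ± 0.11 (adjusted p = 0.225) and 0.33 ± 0.11 (adjusted p = 0.440). Without background correction it was 0.27 ± 0.095 and 0.22 ± 0.095, smaller than with it. Median scaling turned the direction, to -0.84 ± 0.68 at 7 km and -0.37 ± 0.68 at 3 km. Relative to the shift of all tested probes under it (-0.64 and -0.55) these are -0.20 and 0.18. The standard errors there were larger than in the main fit, and neither value passed. The 7 km and 3 km arrays overlapped, with a difference of 0.09 ± 0.10.

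Anxa2, the cell surface protein that gathers plasminogen and its tissue activator, was near background at sea level and above it at both altitudes. Its signals were 152, 145 and 226 on the sea level arrays, 340, 464 and 311 at 3 km, and 305, 290 and 388 at 7 km. Of the sea level arrays, replicate 3 alone was above background (detection p-value 0.0145), while all 3 arrays at 3 km and all 3 at 7 km were. The normalized levels were 7.35, 7.36 and 7.41 at sea level, 7.50, 7.60 and 7.52 at 3 km, and 7.49, 7.51 and 7.63 at 7 km. Altitude and sea level arrays did not overlap, and the 2 altitudes did. The log2 difference was 0.17 ± 0.047 at 7 km (unadjusted p = 0.00727, adjusted p = 0.319 from limma) and 0.17 ± 0.047 at 3 km (unadjusted p = 0.00824, adjusted p = 0.406 from limma). Anxa2 entered the test through the altitude arrays, where it is high, so these p-values and the lack of overlap are not support for a difference. Without sea level replicate 3 no sea level array was above background. The measured log2 difference of Anxa2 was then 0.15 ± 0.036 at 7 km (adjusted p = 0.209 from limma) and 0.14 ± 0.036 at 3 km (adjusted p = 0.296 from limma). A lower bound on the fold, which was not itself tested, was 1.07 at both altitudes. The bound sets the altitude mean of 7.63 against 7.54, the lowest detected level at sea level, beside a measured sea level mean of 7.49. Without background correction the differences with 9 arrays were 0.81 ± 0.17 and 0.80 ± 0.17. In the authors' value table, where sea level replicates 1 and 2 (2.94 and 14.1) were raised to 16, they were 2.81 ± 0.51 and 2.82 ± 0.51; none of these passed. Median scaling gave -0.06 ± 0.18 and -0.03 ± 0.18, or 0.58 and 0.52 relative to the shift of all tested probes.

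Vwf, the carrier of factor VIII and tether of platelets made by endothelium, had the largest difference of the list, and 1 sea level array lay far below the other 8. Its signals were 2167, 1622 and 333 on the sea level arrays, 4222, 4101 and 2713 at 3 km, and 2703, 3098 and 4011 at 7 km. Normalized levels were 10.08, 9.82 and 7.71 at sea level, 11.19, 10.97 and 10.59 at 3 km, and 10.49, 10.99 and 11.50 at 7 km. All altitude arrays lay above all sea level arrays, with or without replicate 3. The log2 difference was 1.79 ± 0.61 at 7 km (unadjusted p = 0.0202, adjusted p = 0.397 from limma) and 1.71 ± 0.61 at 3 km (unadjusted p = 0.0245, adjusted p = 0.533 from limma). Without sea level replicate 3 it was 1.09 ± 0.32 (adjusted p = 0.264) and 1.01 ± 0.32 (adjusted p = 0.403), or 2.13-fold and 2.01-fold. The SD at sea level was 1.30 log2 units, against 0.31 at 3 km and 0.50 at 7 km. The arrays of the 2 altitudes overlapped, with a difference of 0.08 ± 0.61 at 7 km against 3 km. That standard error pools the spread of all 3 groups, and without sea level replicate 3 the difference was 0.08 ± 0.29.

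**Figure D3:**
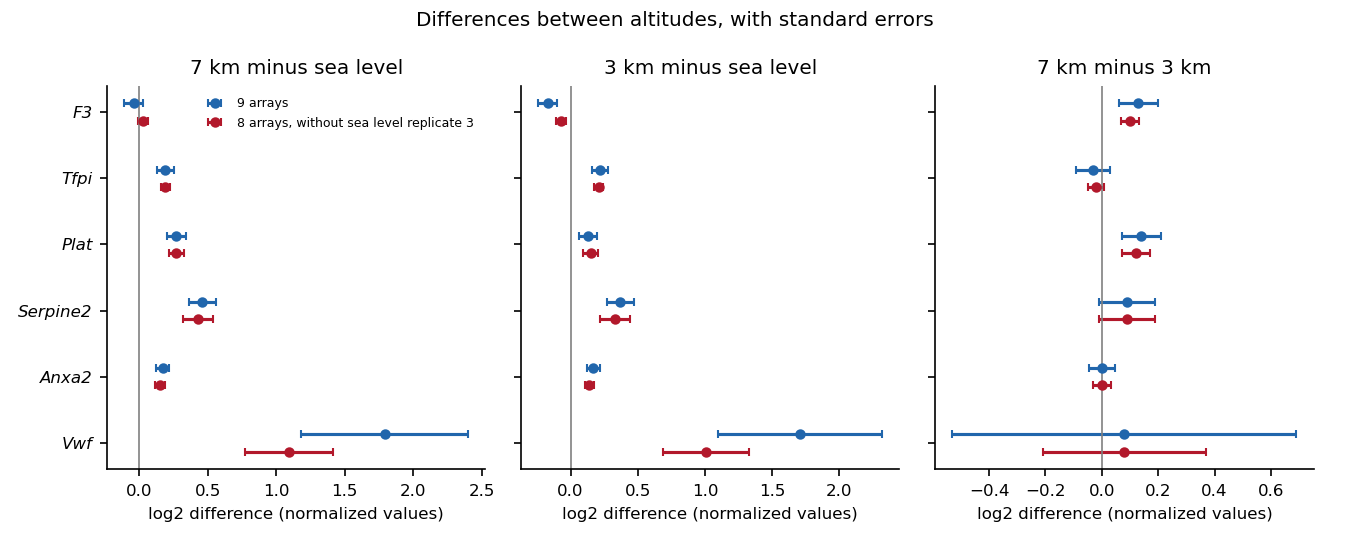
Log2 differences of the 6 tested genes (x axis, normalized values; points with standard errors of the limma model) for 7 km minus sea level, 3 km minus sea level and 7 km minus 3 km, with 9 arrays and with 8. Vwf has 1.79 at 7 km with 9 arrays and 1.09 with 8, and the other genes move less; no difference passed the threshold. The x axis of the third panel covers a narrower range.

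Read as a list, 6 of the 8 probes entered the test, since Tfpi2 and Plau were at background everywhere. The list was chosen with earlier results of these data known, so the shares set beside its counts are no test of the list. Tfpi is counted as the non-normalized table names it. At 7 km against sea level 0 of 6 passed the adjusted threshold in limma, where 0.12% of all tested probes did (8 of 6656). At an unadjusted p below 0.05, 5 of 6 were higher and 0 lower, beside 4.54% of all tested probes higher and 6.84% lower at that level. The same 5 genes, Tfpi, Plat, Serpine2, Anxa2 and Vwf, had all 7 km arrays above all sea level arrays, as did 12.2% of tested probes. Anxa2 met the filter on dim probes through the altitude arrays, where it is high, and leaving it aside 4 of 5 had a p below 0.05 and were higher, and the same 4 did not overlap. The median log2 difference of the 6 was 0.23, beside -0.01 over all tested probes, and 47.7% of tested probes were higher. Scaling arrays by their median in place of quantiles moved all tested probes by -0.64, and relative to that shift Tfpi, Anxa2 and Vwf were higher (0.16, 0.58 and 1.53) and Plat, Serpine2 and F3 lower (-0.02, -0.20 and -0.23). The standard errors of the unshifted differences under that scaling were 0.48, 0.18 and 0.38, and 0.64, 0.68 and 0.64, in the same order. With 8 arrays 0 of 6 passed (0.308% of all tested probes did), 5 had an unadjusted p below 0.05 and were higher (5.49% of tested probes; 7.05% were lower), and 5 did not overlap (16.3%). Anxa2, above background on no sea level array of these 8, is in both counts, which are 4 of 5 without it.

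At 3 km against sea level 5 of the 6 genes had a positive difference and F3 a negative one, where 49.7% of all tested probes were higher. Of the 6, 0 passed, and 0% of all tested probes passed (0 of 6656 in limma). At an unadjusted p below 0.05, 4 were higher (Tfpi, Serpine2, Anxa2 and Vwf; 3.26% of tested probes) and 1 was lower (F3; 4.81%). All 3 km arrays lay above all sea level arrays for those 4 (8.8% of tested probes) and below them for F3 (10.7%). Without Anxa2 the counts of higher genes are 3 of 5. The median was 0.19, beside 0.00 over all tested probes. With 8 arrays, 5 were higher at an unadjusted p below 0.05 (4.32% of tested probes; 5.15% were lower), now with Plat, and 0 passed. Then 5 had all 3 km arrays above (15% of tested probes), and F3 all below (15.6%), and without Anxa2 both counts of higher genes are 4 of 5. Both altitude comparisons share the sea level arrays, so the similar values at 3 km and 7 km are not independent of each other.

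Between 7 km and 3 km, 0 of 6 passed and 0% of all tested probes did (0 of 6656). No gene of the list had an unadjusted p below 0.05 with 9 arrays, where 0.751% of tested probes were higher and 1.95% lower at that level, and 1 (F3, higher) had with 8, beside 3.48% of tested probes higher and 4.71% lower. F3 and Plat had all 7 km arrays above all 3 km arrays, as did 5.93% of tested probes, while 7.71% lay below. With 8 arrays those shares were 5.95% and 7.68%, and the same genes lay above. For Tfpi, Serpine2, Anxa2 and Vwf the altitude groups overlapped.

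**Figure D4:**
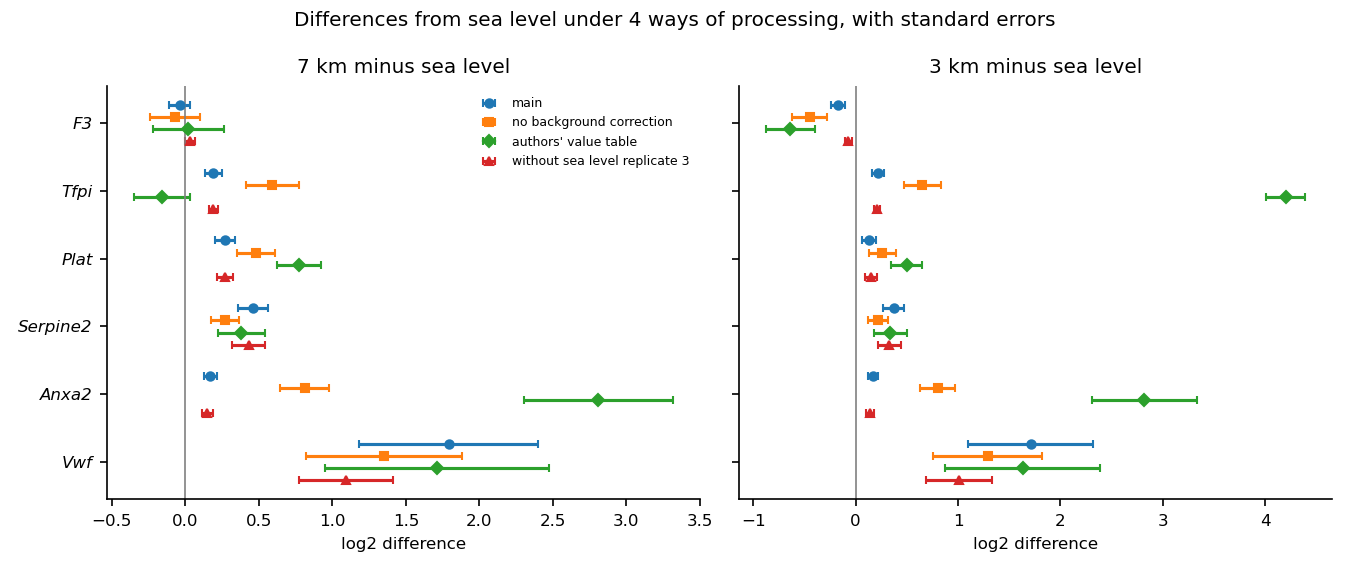
Log2 differences from sea level of the 6 tested genes at 7 km (left) and 3 km (right), with standard errors, under the main processing, with uncorrected background, with the authors' values, and without sea level replicate 3. Tfpi departs in the authors' value table, at -0.16 for 7 km and 4.20 for 3 km. Plat, Serpine2, Anxa2 and Vwf are above 0 in the 8 values drawn for each. Median scaling, not drawn, put Plat, Serpine2 and Anxa2 below 0, with standard errors of 0.64, 0.68 and 0.18.

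Few other genes of coagulation and fibrinolysis could be tested. Of 51 genes in 4 further lists, 37 had a probe, 23 were not above background on any array and 9 entered the test. Of all 13353 named probes, 48.4% were not above background on any array and 36.4% entered the test. Of 20 coagulation factors and their receptors 16 had a probe and 2 were tested (F7 and the thrombin receptor F2r). Of 8 anticoagulants 7 had a probe and 1 was tested (Serpinc1, antithrombin). Of 15 fibrinolysis genes 10 had a probe and 4 were tested (the plasminogen receptor Plgrkt, Serpinb2, Hrg and Vtn). Of 8 platelet genes and partners of von Willebrand factor 4 had a probe and 2 were tested (Gp1bb and Pf4). At 7 km 7 of the 9 were higher and 2 lower, with a median of 0.07, beside 47.7% higher and a median of -0.01 over all tested probes. In limma 0 passed, beside 0.12% of all tested probes, and 0 had an unadjusted p below 0.05. With 8 arrays the median was 0.02 and Serpinc1 had an unadjusted p of 0.0447 (adjusted p = 0.385 from limma).

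The genes of these lists with the smallest p-values had small differences. At 7 km with 9 arrays they were Serpinc1 (0.14 ± 0.061), Plgrkt (-0.10 ± 0.047), Pf4, platelet factor 4 (0.21 ± 0.10), F7, the ligand of tissue factor (0.11 ± 0.054), Serpinb2, an inhibitor of urokinase (0.09 ± 0.050), and Hrg, a plasma protein that binds plasminogen (0.07 ± 0.046). At 3 km they were Pf4 (0.18 ± 0.10), Serpinc1 (0.10 ± 0.061), Hrg (0.07 ± 0.046), Plgrkt (-0.07 ± 0.047), F7 (0.07 ± 0.054) and Serpinb2 (0.05 ± 0.050). Between 7 km and 3 km no member exceeded 0.10 in size: Serpinb2 had 0.04 ± 0.050, Gp1bb -0.10 ± 0.12, Serpinc1 0.04 ± 0.061, F7 0.04 ± 0.054, Plgrkt -0.03 ± 0.047 and F2r -0.09 ± 0.17. Serpinc1, F7, Serpinb2 and Hrg were above background on 8 arrays and not on sea level replicate 3. Without it Serpinc1 had 0.05 ± 0.019 at 7 km, F7 0.03 ± 0.018 and Pf4 0.09 ± 0.068. Most of the 3 km values also shrank without it, to 0.06 ± 0.068 for Pf4, 0.02 ± 0.019 for Serpinc1, 0.02 ± 0.022 for Hrg and 0.01 ± 0.018 for F7. Serpinb2 then had -0.01 ± 0.015, and Plgrkt -0.06 ± 0.043. At 7 km Serpinb2 had 0.02 ± 0.015, Hrg 0.02 ± 0.022 and Plgrkt -0.08 ± 0.043.

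Markers of cells that make these proteins were read beside them, as sums of the normalized linear values of the tested probes on an array. In bulk tissue, fewer cells of a type and less RNA per cell cannot be told apart. Of 16 endothelial markers 12 had a probe and 6 were tested, and their sums ranged from 1730 to 2290 at sea level, from 1420 to 2790 at 3 km and from 1990 to 2870 at 7 km. The probes of Cdh5, Flt1, Tek and Slc2a1 were not above background on any array, and 4 of the 6 tested markers had a positive difference at 7 km. Of those 6, 1 passed, Itm2a, which fell by 0.50 ± 0.047 on the log2 scale at 7 km (adjusted p = 0.0307 from limma). With all 9 arrays the ranges overlap. Without sea level replicate 3 the sea level sums were 1730 to 1810, so that all 7 km arrays lay above them, as they did for Vwf, while the 3 km arrays still overlapped. Astrocyte markers (7 of 10 tested) summed to 16000 to 17700 at sea level, 16800 to 17800 at 3 km and 17900 to 18400 at 7 km, beside the higher Serpine2, and 3 of the 7 had a positive difference at 7 km. Cortical neuron markers (8 of 10 tested), beside Plat, summed to 13500 to 17800, 15000 to 17400 and 15100 to 17000 in the same order. Of those 8, 3 had a positive difference at 7 km. Fibroblast and meningeal markers (5 of 9 tested), beside Anxa2, summed to 7420 to 13900, 6790 to 8790 and 5090 to 10900. Of those 5, 1 had a positive difference at 7 km. Red cell markers (3 of 8 tested) summed to 10500 to 20200, 12300 to 13400 and 12400 to 18300, and all 3 had a positive difference at 7 km. Sea level replicate 3 held the highest sum of the fibroblast and red cell lists. It also had 3500 for the choroid plexus list, where the sum is that of 1 probe, the only 1 of 7 tested. That probe had 174 to 203 on the other sea level arrays, 157 to 158 at 3 km and 157 to 158 at 7 km. The probes of Folr1, Aqp1, Clic6 and Prlr, of the same list, were not above background on any array, sea level replicate 3 included. Oligodendrocyte markers (7 of 10 tested) summed to 8000 to 8860 at sea level, 6110 to 8270 at 3 km and 3080 to 5280 at 7 km, so the 7 km arrays were the lowest. The part of these marker levels in the results was not tested.

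For each tested gene, the named genes with the most similar profile were taken by Pearson's r over the 8 arrays without sea level replicate 3, among 4747 named probes. For Tfpi they were Brms1 (r = 0.981) and Sult1a1 (0.975), for F3 Ckap4 (0.899) and Dctn4 (0.881), and for Plat Bloc1s5 (0.970) and Rnpep (0.957). Serpine2 was closest to Ankrd55 (0.979) and Olr1198 (0.961), Anxa2 to Ctsk (0.968) and Pla1a (0.962), and Vwf to Or10ag58 (0.981) and Bnip2 (0.981). These are the highest of 4747 values over 8 arrays that share 1 normalization, and they are a description with no test.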

How the data were processed

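Messenger RNA of rat brain cortex was measured on 9 one-colour Illumina bead arrays. Per the file headers, the deposited non-normalized table pairs an intensity with a detection p-value for every probe on every array. Its lowest intensity was 56.9 and array medians differed, so the values look neither background-subtracted nor normalized between arrays. The authors' value table gives intensity of 21675 probes, with values below 0 and array means of 207.8 to 209.1, by a method not given in the sources used here. Each column tracked the intensities of its own array (lowest Spearman correlation 0.990). Probes were named from the platform annotation (13353 with 1 gene symbol, 0 with several, 9170 with none; 13313 of the named ones matched RefSeq, GRCr8). RNA was extracted with Trizol and a column with DNase I and labelled as biotin cRNA, per the labels' protocols.

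Signals were corrected and normalized with neqc of limma 3.58.1 in R 4.3.3: negative control distribution inferred from the detection p-values, offset 16, quantile normalization, log2. Probes detected (p-value under 0.05) on 3 arrays or more entered a limma fit of a mean per group over all arrays, with eBayes and Benjamini-Hochberg adjustment over all probes tested (threshold 0.05). The script was tested on simulated data. Alternatives were no background correction, median scaling, the authors' value table (values below 16 raised to 16), an offset of 50, no filter, a filter at 0.01, an eBayes trend, array weights (whose estimation stopped short of convergence), a replicate block, only the 6 arrays compared, and each array left out. The fits of the authors' value table without a filter, and the comparison of both tables, were added after seeing the data. The members and lists were chosen with earlier results of these data known. All members were named, with the 6 genes of the further lists that had the smallest p per comparison and the 2 most similar genes per tested member. No label or header names a slide or scan date, so no such batch was tested.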

Additional observations from a re-analysis of the deposited data

Results flagged for a closer look

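Tfpi2 was at background on every array of the non-normalized table, yet the authors' value table, which no main comparison uses, holds a signal for its probe: a mean of 309 on the 7 km arrays, against 131 on the sea level arrays, and -50.7 on the 3 km arrays. The values on the 7 km and sea level arrays are those expected from the signal of the Tfpi probe, and among the 371 probes that departed on all 6 of those arrays this was the only pair with exchanged values. Exchange among the other departing probes was not searched. Raw scans, which could show which probe carried the signal, were not analysed here. Groups of 3 arrays are too small for a test of single outlying arrays.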

How the results depend on the processing

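No gene of the list passed in any comparison with 9 arrays, and leaving out each array in turn kept all 3 counts at 0 (lowest and highest 0). The estimation of array weights stopped short of convergence. With those weights the count was 2 at 7 km (Tfpi, 0.26 ± 0.037, adjusted p = 0.0219, and Plat, 0.32 ± 0.053, adjusted p = 0.0273) and 1 at 3 km (Tfpi, 0.29 ± 0.035, adjusted p = 0.0148). In the authors' value table it was 1 at 3 km and 1 for 7 km against 3 km, both from the exchanged values of Tfpi. Median scaling in place of quantile normalization moved all tested probes by a median of -0.64 at 7 km, -0.55 at 3 km and -0.06 between altitudes. Under it Tfpi had -0.48, Plat -0.66, Serpine2 -0.84 and Anxa2 -0.06 at 7 km, and -0.38, -0.65, -0.37 and -0.03 at 3 km. Their standard errors were 0.48, 0.64, 0.68 and 0.18 in that order at both altitudes, and none passed. Median scaling was run only with all 9 arrays, sea level replicate 3 included. Against the shift, Anxa2 (0.58 and 0.52), Tfpi (0.16 and 0.17) and Vwf (1.53 and 1.76) stayed higher, and Plat (-0.02 and -0.10) did not. Serpine2 was on opposite sides of it (-0.20 at 7 km, 0.18 at 3 km). For Tfpi2 without a filter, the authors' value table gave 1.30 at 7 km, where the non-normalized table holds it at background. All Plau values there were raised to 16, so that table gives it no difference. Between altitudes, median scaling gave -0.02 ± 0.64 for Plat, -0.47 ± 0.68 for Serpine2, -0.03 ± 0.18 for Anxa2 and -0.33 ± 0.38 for Vwf. In the authors' value table Tfpi had -0.16 and F3 0.02 at 7 km, and Anxa2 -0.01 between altitudes; array weights gave F3 0.05 at 7 km and Anxa2 0.00 (below 0 before rounding) between altitudes. Leaving out 1 array, F3 at 7 km ranged from -0.08 to 0.03, and between altitudes Tfpi ranged from -0.06 to 0.01, Anxa2 from -0.04 to 0.03 and Vwf from -0.18 to 0.32. The stricter detection filter left Serpine2 and Vwf in the test, and of the 6 tested genes those 2 alone. Over all tested probes at 7 km, the count of 8 became 176 with array weights, 13 in the authors' value table, 3 with a trend, and 0 with median scaling, the stricter filter, the 6 arrays alone and the replicate block; it ranged from 0 to 20 when 1 array was left out (20 without sea level replicate 3; 0 without sea level replicate 2, any 7 km array, or 3 km replicate 1 or 2). At 3 km it was 0, and 120 with array weights, 3 in the authors' value table, 3 with a trend, 1 with no filter and 1 without 3 km replicate 3. Between altitudes it was 0, and 1 in the authors' value table. None of the 9 further genes tested passed in these settings; the causes were not tested.

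Deviations of same-numbered arrays correlated by 0.01 to 0.30, and 4 of 9 arrays correlated best with their own number. Whether the replicate numbers of the labels pair the arrays cannot be told from these values. With the replicate block Serpine2 had 0.46 ± 0.070 at 7 km (adjusted p = 0.140) and Vwf 1.79 ± 0.63 (adjusted p = 0.353), and no gene of the list passed.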
